A study of Homo sapiens with 6 samples.

Results

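SLC34A2 and the other genes for phosphate transport across the cell surface were followed in Ishikawa cells, an established human endometrial adenocarcinoma line, with and without overexpression of TEFM. TEFM is the elongation factor of mitochondrial RNA polymerase. The genes are SLC34A2, SLC34A3, SLC20A1, SLC20A2 and XPR1, found by symbol in a table of RNA-seq counts and FPKM (counts scaled to the exonic length of the gene and to the library total); all 5 were among its 61806 genes. Poly(A) RNA was sequenced from 3 libraries labelled TEFM overexpression and 3 labelled EV, described by the submitters as independent biological replicates. The labels do not spell out EV, and give neither the vector nor whether the derivatives are single clones or pools. All cells were grown in DMEM with 10% fetal bovine serum and had no treatment. The 5 genes were chosen with the difference between TEFM and EV libraries in view. Their own differences are therefore given as a description, and no test of them is used as evidence. Adjusted p-values are printed only for other genes. The lists of other genes were also chosen with earlier results of these data known. Their p-values and counts thus describe these libraries and are not independent evidence.

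Cells take up inorganic phosphate with the sodium gradient and release it through a separate exporter. The SLC34 family (NaPi-II) serves mainly the apical face of epithelia: SLC34A2 in intestine, lung and secretory tissues, SLC34A1 and SLC34A3 in the kidney. The SLC20 genes encode the widely expressed importers PiT-1 and PiT-2, which were first known as retrovirus receptors. XPR1, also first known as a retrovirus receptor, is the phosphate exporter of animal cells, and its SPX domain binds inositol pyrophosphates. SLC34A2 protein is an antibody target in ovarian carcinoma, and loss of the gene causes a lung disease with phosphate deposits in the alveoli.

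Promoter sequences are shown for the gene that differed most, for the importer that differed in the other direction and for the exporter, whose level differed least. They come from RefSeq (GRCh38.p14), plus strand, 5′ to 3′, and each ends before the next exon that GENCODE v29 annotates there. RefSeq gives SLC34A2 a pair of transcript starts, 25655851 and 25656464, which both lie inside the span of the gene in the deposited table, and the gene-level counts do not separate them. That span begins upstream of both, at 25648011, and the stretch before its beginning was neither printed nor searched. The first and second starts named below are those of RefSeq. Capitals mark matches to the motifs listed after the sequences.
SLC34A2 upstream of its first start, chr4:25655601-25655821: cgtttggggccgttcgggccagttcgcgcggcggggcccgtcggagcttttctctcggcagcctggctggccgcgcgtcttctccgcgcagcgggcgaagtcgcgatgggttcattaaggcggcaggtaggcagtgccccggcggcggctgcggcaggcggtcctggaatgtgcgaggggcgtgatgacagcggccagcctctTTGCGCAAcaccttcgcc
SLC34A2 upstream of its second start, chr4:25656214-25656463: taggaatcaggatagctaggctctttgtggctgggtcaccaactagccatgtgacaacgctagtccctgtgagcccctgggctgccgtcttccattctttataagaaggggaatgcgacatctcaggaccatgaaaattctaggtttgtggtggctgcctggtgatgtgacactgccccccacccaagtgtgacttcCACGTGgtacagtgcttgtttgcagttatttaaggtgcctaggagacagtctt
SLC20A1, chr2:112645689-112645856: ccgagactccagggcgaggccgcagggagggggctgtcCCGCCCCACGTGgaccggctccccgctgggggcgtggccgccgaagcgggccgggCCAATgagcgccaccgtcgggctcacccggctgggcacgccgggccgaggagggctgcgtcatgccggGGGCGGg
XPR1, chr1:180631772-180632003: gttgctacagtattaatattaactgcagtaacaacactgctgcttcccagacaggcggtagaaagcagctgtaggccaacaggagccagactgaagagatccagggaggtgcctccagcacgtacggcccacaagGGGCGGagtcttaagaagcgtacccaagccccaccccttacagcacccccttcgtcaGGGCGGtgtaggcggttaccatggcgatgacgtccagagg

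The motifs were searched on both strands of the full 300-base RefSeq windows, which also hold 50 bases after the start. They were chosen after the sequences had been read. TTGCGCAA, a palindrome that C/EBP proteins can bind, occurs once before the first SLC34A2 start, at base 25655804, and in 0.152% of all 34943 promoter windows. CACGTG, the E-box palindrome, occurs before the second SLC34A2 start and in the SLC20A1 window, and in 7.23% of all windows. In SLC20A1 it directly follows a minus-strand GGGCGG match without overlap, so the pair is printed as one run of capitals. GGGCGG, the GC box, has 2 matches in the SLC20A1 window and 5 in that of XPR1, of which 2 lie in the stretch printed, and is held by 44.9% of all windows. CCAAT is in the SLC20A1 window and in 34.6% of all. The NF-kB consensus, searched because the series title names NF-kB, has 1 match in the SLC20A1 window, downstream of the stretch printed, and none in the other 3 windows; 11.3% of all windows hold it. TGANTCA, the AP-1 motif, was in none of these 4 windows and in 7.72% of all. A match is a string of letters in a window and was not tested as a binding site.

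The libraries held between 14252668 and 17891047 counts. TEFM itself stood at 23.65, 22.72 and 23.98 FPKM in TEFM libraries, against 4.13, 4.24 and 4.55 FPKM in EV libraries. Of the 10 markers of endometrial carcinoma epithelium, 8 had a mean of at least 1 FPKM over the 6 libraries; the receptor genes ESR1 and PGR did not, with no mean above 0.0167 FPKM in TEFM libraries or 0.0533 FPKM in EV libraries, so the RNA of both steroid receptors was near 0 in both groups. Fibroblast markers summed to 1.77 to 2.37 FPKM in TEFM libraries and 1.84 to 2.01 FPKM in EV libraries. Endothelial markers summed to at most 0.53 FPKM in TEFM libraries and 0.39 FPKM in EV libraries, and leukocyte markers to at most 1.23 FPKM in TEFM libraries and 0.81 FPKM in EV libraries. Among 14254 genes with a mean of at least 1 FPKM, edgeR's quasi-likelihood test at an adjusted p of 0.05 called 43.4%, 21.7% higher and 21.7% lower in TEFM libraries. The p-values rest on how far libraries of one group spread, which edgeR put at a biological coefficient of variation of 4.81%.

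SLC34A2, the apical sodium-phosphate importer NaPi-IIb, had the highest FPKM of the 5 genes in EV libraries. In the edgeR fit it was 66% lower in TEFM libraries. The gene (ENSG00000157765) lies on the plus strand of chromosome 4, from 25648011 to 25678748 in the coordinates of the table, which match GRCh38. It had 14.23, 14.10 and 14.07 FPKM in TEFM libraries, against 41.69, 42.62 and 44.07 FPKM in EV libraries. The groups lay far apart: the highest TEFM library was below the lowest EV library by more than the whole TEFM level. The means were 14.1 ± 0.0851 FPKM in TEFM libraries and 42.8 ± 1.2 FPKM in EV libraries (SD, n = 3 each), and the counts behind them were 1213, 1249 and 1012 in TEFM libraries against 3763, 3245 and 3569 in EV libraries. The fit gave a log2 fold change of -1.56 (SE 0.0436), or 2.94-fold lower in TEFM libraries. In a bulk library, fewer cells with the transcript and less of it per cell cannot be told apart.

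Set against the whole table, SLC34A2 ranked as number 133 of the 14254 tested genes, counted from the most negative fold change. It was number 3 among the 217 tested genes whose symbol begins with SLC and a digit, which include the scaffold genes SLC9A3R1 and SLC9A3R2. Its level was above 94.3% of tested genes in EV libraries and above 76.8% in TEFM libraries. These ranks describe the contrast by which the gene was picked and are not evidence for it.

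The kidney members of the family were nearly silent. SLC34A3, the electroneutral importer NaPi-IIc (ENSG00000198569, chromosome 9, 137230757 to 137236555), had 0.13, 0.32 and 0.21 FPKM in TEFM libraries, against 0.07, 0.29 and 0.11 FPKM in EV libraries. The groups overlap, and the values rest on 5, 13 and 7 counts in TEFM libraries and 3, 10 and 4 counts in EV libraries. SLC34A3 did not reach 1 FPKM and was outside the 14254 genes; fitted with no filter on low values, it had a log2 fold change of 0.56 (SE 0.654). SLC34A1, which encodes the renal importer NaPi-IIa and is no member of the chosen set, had 0 counts in all 6 libraries. A count of 0 allows up to 3 counts in a library, which is 0.0377 to 0.0465 FPKM in TEFM libraries and 0.0370 to 0.0439 FPKM in EV libraries, for counting error only.

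SLC20A1, the widely expressed importer PiT-1, was higher in TEFM libraries, by 25.2% in the edgeR fit. That fit scales the libraries for composition, which the FPKM do not. Without composition scaling its log2 fold change was 0.285. The gene (ENSG00000144136, chromosome 2, 112645939 to 112663825, plus strand) had 18.90, 18.15 and 19.25 FPKM in TEFM libraries, against 15.06, 15.72 and 15.42 FPKM in EV libraries. All 3 TEFM libraries were above all 3 EV libraries, with a gap wider than the range within either group. The means were 18.8 ± 0.562 FPKM in TEFM libraries and 15.4 ± 0.331 FPKM in EV libraries (SD, n = 3 each), a log2 fold change of 0.32 (SE 0.0484). In FPKM this difference was much smaller than that of SLC34A2, and of opposite sign. The annotation in the deposited table files SLC20A1 also under positive regulation of I-kappaB kinase and NF-kB signalling, the pathway named in the series title.

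SLC20A2, the importer PiT-2, whose loss causes calcification of the basal ganglia, differed little. The gene (ENSG00000168575, chromosome 8, 42416475 to 42541926, minus strand) had 13.02, 12.71 and 12.08 FPKM in TEFM libraries, against 13.64, 14 and 13.44 FPKM in EV libraries. The groups did not overlap, but the gap between them was narrower than the range within the TEFM libraries. Its log2 fold change was -0.08 (SE 0.0504), and was -0.12 without composition scaling. SMIM19, a gene on the opposite strand that overlaps SLC20A2, had 4.68 ± 0.608 FPKM in TEFM libraries and 7.83 ± 0.299 FPKM in EV libraries (SD, n = 3 each), a log2 fold change of -0.70. No source used here says whether the counting used strand, and reads of the overlap may be shared; the part of SMIM19 in the SLC20A2 value was not tested.

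In the fit, XPR1, the exporter, differed between the groups by less than the spread within them (SD 0.0541 on the log2 scale). The gene (ENSG00000143324, chromosome 1, 180632022 to 180890279, plus strand) had 12.19, 11.88 and 11.72 FPKM in TEFM libraries, against 12.55, 12.89 and 11.72 FPKM in EV libraries. The groups overlap, sharing 11.72 FPKM as their lowest value. The means were 11.9 ± 0.239 FPKM in TEFM libraries and 12.4 ± 0.602 FPKM in EV libraries (SD, n = 3 each), and the log2 fold change was -0.01 (SE 0.0482).

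**Figure D1:**
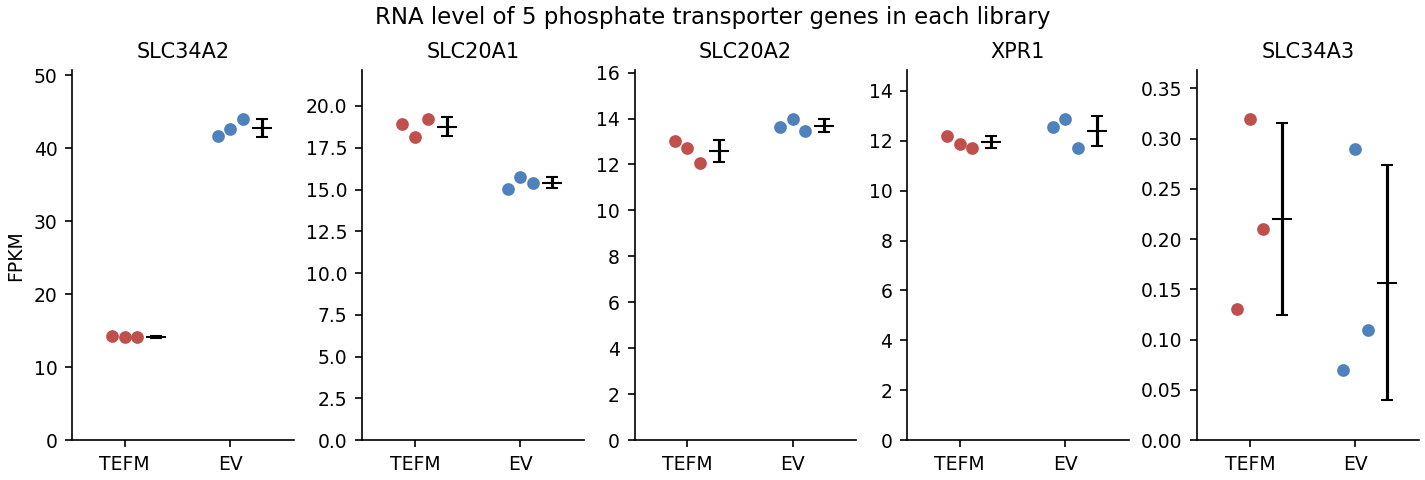
FPKM of each of the 5 genes, one panel per gene with its own axis from 0; points are the 3 TEFM and the 3 EV libraries, and the bars beside them are mean and SD. SLC34A2 stands near 14 FPKM in TEFM libraries and above 41 FPKM in EV libraries, SLC20A1 is higher in TEFM libraries, and the XPR1 and SLC34A3 points overlap between groups.

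Of the 4 members with a mean of at least 1 FPKM, 2 were among the genes called in the fit, against 43.4% of all tested genes. The FPKM of the groups did not overlap for 3 of these 4, SLC34A2, SLC20A1 and SLC20A2, as for 51.6% of all tested genes. Since the members were chosen on this contrast, nothing is read from either count.

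The order of the transporters by FPKM, which is a level per length, changed at the top. In TEFM libraries SLC20A1 was highest with a mean of 18.8 FPKM, followed by SLC34A2 with 14.1, SLC20A2 with 12.6 and XPR1 with 11.9 FPKM. There, SLC20A2 and XPR1 overlapped between libraries and cannot be ordered, while the other neighbours in this order did not overlap. In EV libraries SLC34A2 led with 42.8 FPKM, followed by SLC20A1 with 15.4, SLC20A2 with 13.7 and XPR1 with 12.4 FPKM, and no neighbours overlapped. SLC34A3 was last in both groups.

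The 5 genes together summed to 57.7 ± 0.712 FPKM in TEFM libraries and 84.4 ± 1.29 FPKM in EV libraries (SD, n = 3 each). Without SLC34A2 the sums were 43.5 ± 0.632 FPKM in TEFM libraries and 41.6 ± 1.14 FPKM in EV libraries, so SLC34A2 accounted for the lower total. Its share of the summed FPKM was 24.3%, 24.7% and 24.5% in TEFM libraries, against 50.2%, 49.8% and 52.0% in EV libraries. That of SLC20A1 was 32.3%, 31.8% and 33.6% in TEFM libraries, against 18.1%, 18.4% and 18.2% in EV libraries. No gene held more than 33.6% of the sum in a TEFM library, whereas SLC34A2 held at least 49.8% in each EV library. The ratio of SLC34A2 to SLC20A1 FPKM was 0.754 ± 0.023 in TEFM libraries and 2.78 ± 0.074 in EV libraries. The 4 importers summed to 3.83 ± 0.0511 times the exporter in TEFM libraries and to 5.83 ± 0.351 times in EV libraries. These are ratios of RNA levels, and transport was not measured.

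**Figure D2:**
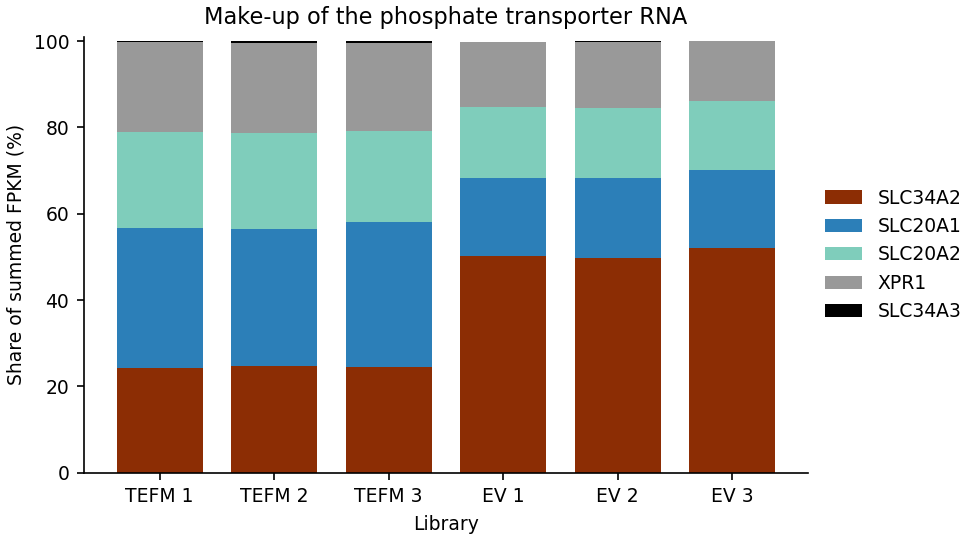
Share of each gene in the summed FPKM of the 5 genes, in percent, one stacked bar per library with the TEFM libraries on the left. SLC34A2 takes 24.3% to 24.7% in TEFM libraries and 49.8% to 52.0% in EV libraries, and the SLC34A3 share is barely visible.

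The genes around SLC34A2 were examined to see whether its region moved as a whole. Distances were taken between the lower coordinates of genes, whichever strand they lie on. Of 11 other tested genes within 1 Mb of SLC34A2 by this measure, 1 rose, 4 fell and 6 did not pass. Their median log2 fold change was -0.10 (of all tested genes 21.7% rose and 21.7% fell, with a median of -0.003). SEL1L3, the nearest, a minus-strand gene at a distance of 99.4 kb, fell by 0.20 on the log2 scale (edgeR adjusted p = 0.00122). On the other side, PI4K2B, a phosphatidylinositol kinase, had -0.30 (edgeR adjusted p = 0.00018), ZCCHC4, an RNA methyltransferase, -0.31 (edgeR adjusted p = 0.00322) and SEPSECS, an enzyme of selenocysteine synthesis, -0.78 (edgeR adjusted p = 5.8e-07). LGI2 rose to 1.64 ± 0.162 FPKM in TEFM libraries, against 0.777 ± 0.0611 FPKM in EV libraries (SD, n = 3 each; edgeR adjusted p = 1.42e-06). ANAPC4 (-0.11), SMIM20 (0.11), RBPJ (-0.07), TBC1D19 (-0.10), CCDC149 (-0.06) and SOD3 (0.15) did not pass. No tested neighbour had a log2 fold change as low as that of SLC34A2, and the median of the 18 tested genes within 5 Mb was -0.06.

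**Figure D3:**
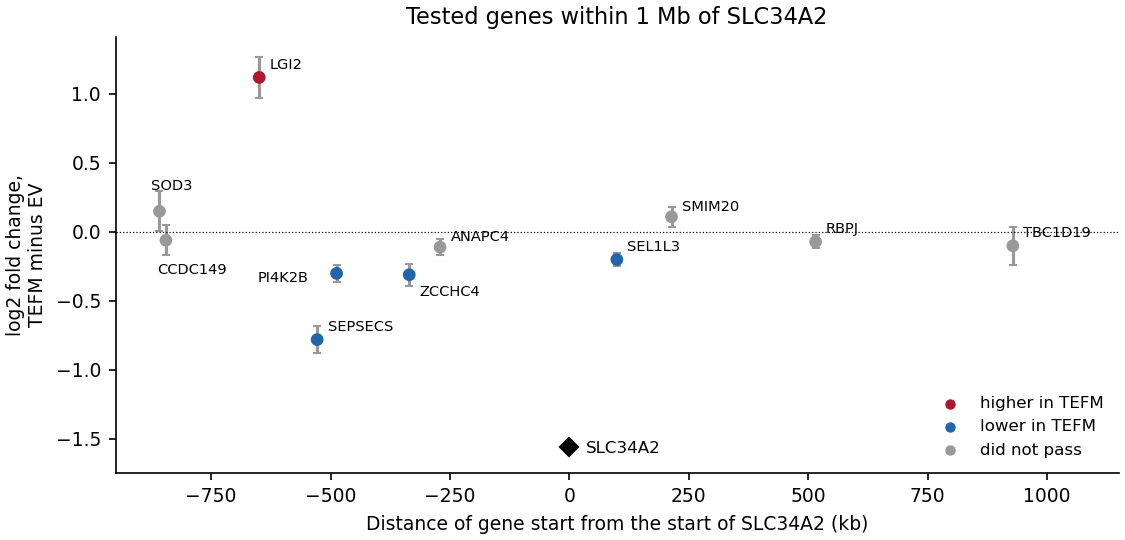
log2 fold change (TEFM minus EV, bars are standard errors) of the 11 tested genes within 1 Mb of SLC34A2, against their distance from it in kb. The gene start on the axis is the lower coordinate of a gene on either strand, and the diamond is SLC34A2. The neighbours lie between -0.78 and 1.12, all above SLC34A2 at -1.56.

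The surroundings of the other genes were counted in the same way, to be read beside the 21.7% of all tested genes that rose and the 21.7% that fell. Around SLC20A1, which was higher, 6 of 17 tested neighbours fell, ZC3H6 (-0.83) and ZC3H8 (-0.50) with the smallest p. PAX8-AS1 alone rose (0.28). That gene was named after its value was seen, and may share reads with PAX8, to which it is antisense. The median of these neighbours was -0.28, and that of the 35 tested genes within 5 Mb was -0.04. Around SLC20A2, 4 of 16 rose (2 without TEFM replicate 1) and 7 fell, with a median of -0.01. ANK1, the ankyrin of the red cell membrane, had 6.85 ± 0.759 FPKM in TEFM libraries and 0.567 ± 0.0611 FPKM in EV libraries (SD, n = 3 each; edgeR adjusted p = 8.22e-19), and GPAT4, an enzyme of glycerolipid synthesis, rose by a log2 fold change of 0.35. Around XPR1, 3 of 7 rose, among them the stress-induced gene IER5 (1.9) and STX6, a syntaxin (0.37), and 1 fell. Around SLC34A3, 14 of 50 rose, TUBB4B, a tubulin (0.65), having the smallest p of these, and 7 fell (4 without TEFM replicate 3), among them NOTCH1 (-0.77).

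The genes whose pattern was most like that of SLC34A2 over the 6 libraries were sought among 7570 other genes with a mean of at least 5 FPKM, by Pearson's r of log2(CPM + 1). They were ADGRL2, an adhesion receptor (r = 0.9993), DENND11 (0.9993), SREBF2, a regulator of sterol synthesis (0.9991), MAP2K6, a kinase of the p38 pathway (0.9989), and SNHG29, a small nucleolar RNA host gene (0.9989). The most opposite were EZR (r = -0.9997), IFIT1, an interferon-induced gene (-0.9996), CLDN1, a tight junction gene (-0.9996), LINC02009 (-0.9995) and MAGEC2, a cancer-testis antigen gene (-0.9995). The 6 points form 2 groups of 3, so r mostly reports how cleanly a gene differs between them: 105 genes reached 0.99 and 165 reached -0.99. Among the transporters themselves, r with SLC34A2 was -0.98 for SLC20A1, 0.77 for SLC20A2 and 0.13 for XPR1, as a description of the same 6 libraries.

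Other genes of phosphate handling were taken from 5 lists with 94 genes, of which 59 were tested, 24 rose, 7 fell and 28 did not pass. Their median log2 fold change was 0.06, against -0.003 over all tested genes, of which 21.7% rose and 21.7% fell. Among carriers and partners that act beside the 5 transporters, 5 of 9 tested rose and 3 fell (median 0.15). ANKH, which lets ATP and pyrophosphate precursors out of the cell, fell to 4.18 ± 0.189 FPKM in TEFM libraries, against 5.87 ± 0.425 FPKM in EV libraries (SD, n = 3 each; edgeR adjusted p = 1.93e-06). KIDINS220, a partner protein of XPR1, fell by 0.11 on the log2 scale (edgeR adjusted p = 0.0367). SLC37A4, the glucose 6-phosphate and phosphate antiporter of the endoplasmic reticulum, rose to 12.2 ± 0.542 FPKM in TEFM libraries, against 10.1 ± 0.229 FPKM in EV libraries. SLC25A24, an ATP-magnesium and phosphate carrier of mitochondria, rose by 0.19 and SLC25A3, the mitochondrial phosphate carrier, by 0.15 on the log2 scale; the FPKM of SLC25A3 overlapped between groups. With limma on log2(FPKM + 1), 2 of this list rose in place of 5, and without EV replicate 1, 1 fell in place of 3.

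Enzymes that make or break down inositol phosphates, including the SPX ligands of XPR1, were taken as a second list. Of 14 tested, 5 rose, none fell and 9 did not pass (median 0.05), where 21.7% of all tested genes rose and 21.7% fell. Without composition scaling 3 rose, and with limma on log2(FPKM + 1) 1 rose. When either TEFM replicate 1 or EV replicate 1 was left out, 3 rose. ITPKB, a kinase of inositol trisphosphate, had 13.81, 12.43 and 12.58 FPKM in TEFM libraries, against 6.54, 6.89 and 6.56 FPKM in EV libraries, groups far apart (edgeR adjusted p = 6.52e-13). Its paralogue ITPKA rose by 0.92 on the log2 scale at a low level, with a mean of 1.64 FPKM in TEFM libraries and 0.893 FPKM in EV libraries. IP6K1, a kinase that forms the pyrophosphate, and ITPK1, which acts earlier in the route, rose by 0.22 and 0.16. PPIP5K1 (-0.04) and PPIP5K2 (0.04), the kinases of the last step, did not pass (edgeR adjusted p = 0.781 and 0.494).

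In the list of hormonal phosphate regulation, 7 of 12 tested genes rose, 2 fell and 3 did not pass (median 0.36). Of all tested genes, 21.7% rose and 21.7% fell. VDR, the vitamin D receptor, had 17.66, 15.53 and 16.57 FPKM in TEFM libraries, against 9.26, 7.93 and 8.39 FPKM in EV libraries (edgeR adjusted p = 4.58e-12), without overlap. Its partner RXRA rose by 0.46 on the log2 scale, while CYP24A1, a VDR target that degrades vitamin D, had 0 counts in every library. FAM20C, a kinase of secreted proteins, rose by 1.06 and FGFR1, a receptor for FGF23, by 0.49; FGF23 had 0 counts and its co-receptor gene KL at most 0.0667 FPKM as a group mean. The stanniocalcins, secreted factors that act on calcium and phosphate in fish and mammals, moved apart. STC2 had 12.85, 21.39 and 17.13 FPKM in TEFM libraries, against 44.58, 43.36 and 46.18 FPKM in EV libraries, lower and more widely spread in the TEFM libraries (edgeR adjusted p = 2.44e-11). STC1 rose to 495 ± 12.1 FPKM in TEFM libraries, against 424 ± 5.45 FPKM in EV libraries (SD, n = 3 each; edgeR adjusted p = 6.05e-07). At a mean of at least 5 FPKM, 2 of the list rose and 1 fell, because fewer of its genes are tested there.

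Scaffold proteins that hold NaPi carriers at the apical membrane, and the ezrin family that ties those scaffolds to actin, formed a further list. Of 8 tested, 5 rose, none fell and 3 did not pass (median 0.23), where 21.7% of all tested genes rose and 21.7% fell. EZR, the gene for ezrin, had 196.13, 195.40 and 195.71 FPKM in TEFM libraries, against 129.34, 128.18 and 128.68 FPKM in EV libraries, very tight within each group (edgeR adjusted p = 1.74e-13). RDX, the gene for radixin, rose by 0.36, the scaffold gene SLC9A3R2 (NHERF2) by 0.39 and PATJ, a polarity gene, by 0.28 on the log2 scale. SLC9A3R1 (NHERF1), the more abundant scaffold, had 49.2 ± 2 FPKM in TEFM libraries and 47.1 ± 3.74 FPKM in EV libraries (SD, n = 3 each; edgeR adjusted p = 0.133), and PDZK1 (-0.14) did not pass.

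Phosphatases and enzymes of pyrophosphate mostly did not pass: of 16 tested, 2 rose, 2 fell and 12 did not (median -0.09). ALPPL2, listed in the table as ALPG, a placental-type alkaline phosphatase, had 2.45 ± 0.324 FPKM in TEFM libraries and 0.930 ± 0.0800 FPKM in EV libraries (SD, n = 3 each; edgeR adjusted p = 3.70e-06). It is nearly identical to ALPP, and how the counting divided reads of these paralogues is not known. LHPP, a phosphohistidine phosphatase, rose by 0.57, while PRUNE1, a phosphatase of short polyphosphates, fell by 0.28 and ENPP4, a surface phosphodiesterase, by 0.19 on the log2 scale. Without composition scaling 6 of this list fell, and with no filter on low values 5 rose and 4 fell. The sodium-potassium pump, whose gradient drives the SLC34 and SLC20 importers, was tested for 4 genes, of which 1 rose and 2 fell (median -0.19). For both lists, the shares over all tested genes were 21.7% risen and 21.7% fallen. ATP1B1, a beta subunit, rose to 23.2 ± 1.53 FPKM in TEFM libraries, against 18.7 ± 0.282 FPKM in EV libraries (SD, n = 3 each; edgeR adjusted p = 2.48e-07), and ATP1B3, another beta subunit, did not pass (-0.00).

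**Figure D4:**
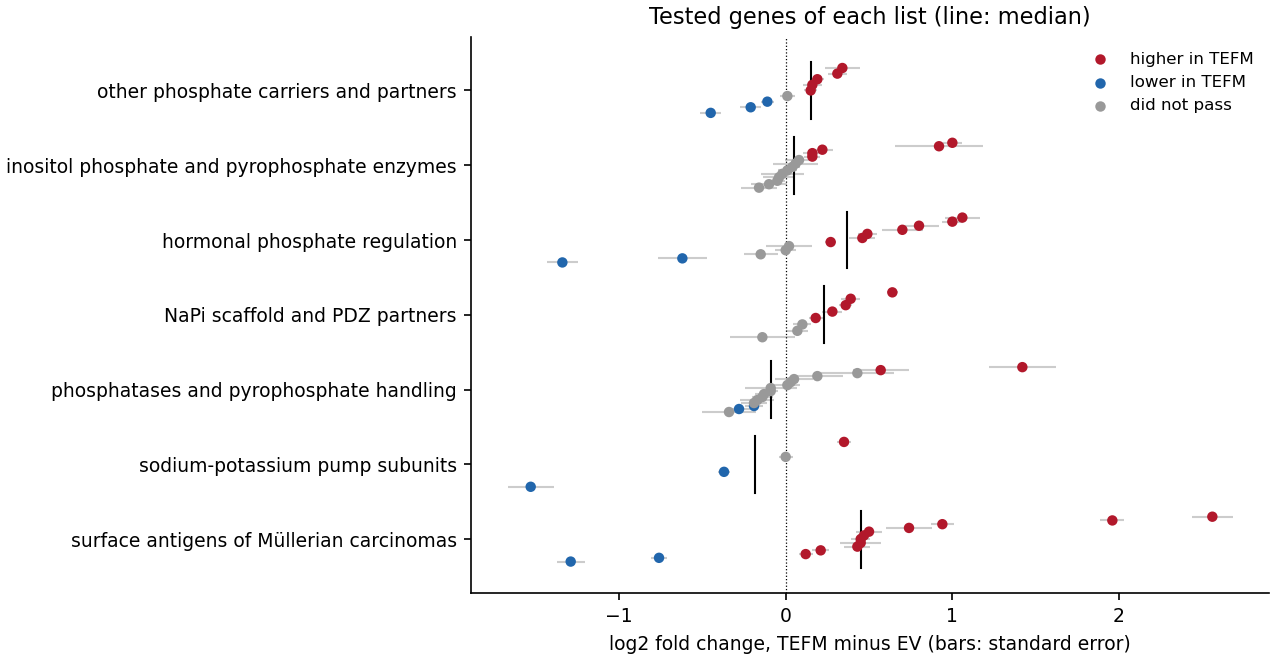
log2 fold change (TEFM minus EV) of each tested gene in 7 lists, with standard errors; red genes were higher, blue genes lower and grey genes not called in edgeR, and the vertical line is the list's median. Medians run from -0.19 for the pump to 0.45 for the surface antigens.

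Because SLC34A2 protein serves as a surface antigen of Müllerian carcinomas, other such antigens were set beside it. Of 13 tested, 11 rose, 2 fell and none failed to pass (median 0.45), where 21.7% of all tested genes rose and 21.7% fell. FOLR1, the folate receptor, had 37.26, 38.84 and 35.15 FPKM in TEFM libraries, against 19.76, 18.71 and 21.13 FPKM in EV libraries (edgeR adjusted p = 5.45e-11). L1CAM rose to 4.07 ± 0.0306 FPKM in TEFM libraries, against 0.713 ± 0.142 FPKM in EV libraries (SD, n = 3 each; edgeR adjusted p = 1.78e-14). The genes that fell were WFDC2, which encodes the secreted antigen HE4, and CDH6, K-cadherin. WFDC2 had 112.94, 100.61 and 102.59 FPKM in TEFM libraries, against 174.05, 181.20 and 196.68 FPKM in EV libraries (edgeR adjusted p = 3.44e-12), and CDH6 fell by 1.29 on the log2 scale (edgeR adjusted p = 7.03e-12). Beside this list, 7 of the 8 tested markers of carcinoma epithelium rose as well, with sums of 733 to 767 FPKM in TEFM libraries and 564 to 612 FPKM in EV libraries; EPCAM is in both lists, and the part of these markers in the result was not tested. PAX8, the lineage factor of Müllerian epithelium, had 89.7 ± 1.91 FPKM in TEFM libraries and 89.3 ± 1.2 FPKM in EV libraries (SD, n = 3 each; edgeR adjusted p = 0.292).

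SLC34A2 is also a known product of alveolar type II cells of the lung, so their markers were checked. The surfactant genes SFTPC, SFTPA1 and SFTPA2 and the lineage factor NKX2-1 had 0 counts in all libraries. Of 10 such markers 3 were tested, LPCAT1 and ABCA3 rose (0.50 and 1.2) and LAMP3 did not pass (0.08). Of all tested genes, 21.7% rose and 21.7% fell. The list summed to 44.8 to 46.8 FPKM in TEFM libraries and 32.1 to 33.9 FPKM in EV libraries, and most of that was LPCAT1, with 41.4 ± 0.847 FPKM in TEFM libraries and 30.1 ± 1.63 FPKM in EV libraries (SD, n = 3 each). SFTPB, SFTPD and NAPSA, the other 3 markers, had at most 0.10 FPKM in any TEFM library and 0.09 FPKM in any EV library.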

How the data were processed

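RNA-seq of 3 TEFM and 3 EV libraries was read from 1 table in which the authors deposited raw counts and FPKM per gene, per the file headers. The submitters' processing notes name cutadapt 1.9.1 and hg19; no aligner, counter or strand setting is given in the sources used here. Positions in the table match GRCh38: 99.9% of 58254 shared gene IDs overlap their GENCODE v29 gene. The deposited FPKM equal the deposited counts scaled to exonic size and column total.

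Counts of genes with a mean of at least 1 FPKM were tested with edgeR 4.0.16 (R 4.3.3; quasi-likelihood F test, TMM scaling, two-sided, Benjamini-Hochberg over 14254 genes, threshold 0.05), after a check on simulated data. Standard errors come from the F statistic. Chi-square per degree of freedom on counts was 2.09 to 3.91 within groups and 19.1 to 24.5 between them. Alternatives changed scaling, filter, test (DESeq2 1.42.0; limma 3.58.1), pseudocount, block and libraries. Named are TEFM, the members and SLC34A1; per list up to 4 called genes of smallest p; all SLC34A2 neighbours and up to 2 per other member; 5 genes of highest and 5 of lowest r; other list genes by value. Some genes that this rule would name are not reported here. Members and lists were chosen with earlier results of these data known.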

Additional observations from a re-analysis of the deposited data

How the results depend on the processing

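Over the alternatives the log2 fold change of SLC34A2 ran from -1.60 to -1.53, that of SLC20A1 from 0.27 to 0.34, that of SLC20A2 from -0.12 to -0.06 and that of XPR1 from -0.06 to 0.01. Moves beyond the spread within groups were to -1.598 (no composition scaling) and -1.591 (limma, pseudocount 0.1) for SLC34A2, and to 0.285 (no composition scaling), 0.269 and 0.283 (limma, pseudocounts 1 and 0.1) for SLC20A1. SLC34A3 could be fitted with no filter only. At a mean of at least 5 FPKM, which tests fewer genes, 2046 genes rose over the table; rises and falls were 2 and 1 for hormonal regulation, 7 and 1 for surface antigens, 9 and 4 around SLC34A3, 0 rises for phosphatases and around SLC34A2, 2 rises around SLC20A2, 1 fall for the pump and 2 falls around SLC20A1. With no filter, 1 inositol phosphate enzyme fell, 5 phosphatases rose and 4 fell, 3 pump genes rose and 2 genes around SLC20A2 rose. Without composition scaling, 3 inositol phosphate enzymes rose, 6 phosphatases fell and 2 genes around SLC20A2 rose. With limma at either pseudocount, 2 carriers, 1 inositol phosphate enzyme and 2 genes around SLC20A2 rose. The cause of these moves was not tested. Leaving out 1 library at a time gave 1 to 3 falls among carriers, 3 to 5 rises among inositol phosphate enzymes, 4 to 7 falls around SLC34A3 (4 without TEFM replicate 3) and 2 to 4 rises around SLC20A2 (2 without TEFM replicate 1).

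Same-numbered TEFM and EV libraries did not deviate together (correlations of -0.091, 0.057 and -0.067), so the numbers give no pairing. Between libraries of unlike number the correlations ran from -0.090 to 0.146, the highest being that of TEFM replicate 1 with EV replicate 3. A block on the replicate number does not cover that combination. With the replicate number as a block, 2986 genes rose and 2949 fell, SLC34A2 stood at -1.558 and no count here moved by over 1.5 times.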

Other observations

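Several genes of the lists lay under the level needed for the test and were picked out after their values were seen; they are given as values only. IP6K3, the muscle-type kinase of inositol hexakisphosphate, had 0.02, 0.04 and 0.00 FPKM in TEFM libraries, against 0.56, 0.45 and 0.31 FPKM in EV libraries. ALPP, the placental alkaline phosphatase, whose reads the counting may have divided with its paralogue ALPG, had 1.65, 1.45 and 1.2 FPKM in TEFM libraries, against 0.23, 0.42 and 0.28 FPKM in EV libraries. FXYD5, a regulator of the sodium-potassium pump, had 1.21, 1.31 and 1.03 FPKM in TEFM libraries, against 0.39, 0.18 and 0.37 FPKM in EV libraries. MSLN, the gene for the surface antigen mesothelin, had 1.10, 0.81 and 0.81 FPKM in TEFM libraries, against 0.32, 0.51 and 0.63 FPKM in EV libraries.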
